A study of Mus musculus with 10 samples.

Results

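The genes described here make cholesterol in the liver or sense and move it. Of 28 named genes, 26 were present as single symbols in the probe table, out of 12366 genes measured, and Acat2 and Soat2 were not among them. The 26 comprised 18 enzymes from Hmgcs1 to Dhcr7, 4 genes that control the SREBP transcription factors, and 4 that move sterol through the cell. Each gene was read from its brightest probe set over the 10 arrays, and values are on the log2 scale of the deposited table. Livers of 5 mutant mice were set against livers of 5 control mice, all aged 28 days, of mixed strain and fasted for 5 hours, with 1 array per liver. Mutants were DicerloxP/loxP and carried Afp-Cre, so that Dicer1, whose enzyme cuts microRNA precursors into their mature form, is deleted by a Cre recombinase driven by the Afp promoter. That promoter is active in fetal hepatoblasts, the precursors of hepatocytes and bile duct cells, and blood, endothelial and stellate cells of the liver come from other lineages. The sources used here do not state the genotype of the control mice.

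Cholesterol is built from acetyl-CoA through mevalonate, squalene and lanosterol. When sterol in the endoplasmic reticulum is low, the escort protein SCAP carries SREBP2 to the Golgi, where proteases release its transcription factor domain, and the genes of the pathway are transcribed together. When sterol is plentiful, the INSIG proteins hold SCAP back. In mouse liver, inhibition of miR-122, the main microRNA of hepatocytes, is known to lower transcripts of cholesterol synthesis, and Srebf2 itself is the host gene of miR-33, which is known to act on the transcripts of Abca1 and Npc1.

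Sequences from RefSeq (GRCm38.p6) show what many of these genes share at their start sites. Promoter sequence was found for 21 of the 26 genes, and the 250 bases before each start were searched on both strands. The letters ATTGG, the inverted CCAAT box bound by NF-Y, a factor known to act beside SREBP, were present in 20 of 21 genes and in 15 of 15 enzymes, against 40.2% of genes on the array and 33.8% of all promoters in the table. Scap was the gene without it. The letters TCACNCCAC, a form of the sterol response element, were present in 1 of 21, Hmgcs1, against 1.29% of genes and 1.05% of promoters. The GC box GGGCGG was present in 18 of 21 (60.4% of genes and 32.7% of promoters) and the E-box CACGTG in 5 of 21 (9.67% and 6.02%). Matches of different motifs did not overlap in these genes. A match is a description of the letters and not a measured binding site. A gene with several listed starts was counted if any of them had a match. Shown are Hmgcs1 (chr13:119690101-119690350, plus strand) for its sterol response element and Idi1 (chr13:8885356-8885605, plus) as a typical enzyme. Pmvk (chr3:89454291-89454540, plus, the first of 2 listed starts) and Ebp (chrX:8193513-8193762, minus) are shown as the enzymes that passed the test. The second Pmvk start (chr3:89459321-89459570, plus), not shown, had no CCAAT or sterol response element match. Insig1 (chr5:28071162-28071411, plus) is shown as a gene of SREBP control whose level in mutants departed from that of the enzymes. Each runs 5′ to 3′ up to the base before the start, and capitals mark the sterol response element and CCAAT matches.
Hmgcs1: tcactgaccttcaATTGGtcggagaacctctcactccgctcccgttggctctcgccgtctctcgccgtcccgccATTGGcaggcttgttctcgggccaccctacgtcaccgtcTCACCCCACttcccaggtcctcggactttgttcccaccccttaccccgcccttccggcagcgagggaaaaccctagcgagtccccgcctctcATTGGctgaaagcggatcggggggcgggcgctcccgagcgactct
Idi1: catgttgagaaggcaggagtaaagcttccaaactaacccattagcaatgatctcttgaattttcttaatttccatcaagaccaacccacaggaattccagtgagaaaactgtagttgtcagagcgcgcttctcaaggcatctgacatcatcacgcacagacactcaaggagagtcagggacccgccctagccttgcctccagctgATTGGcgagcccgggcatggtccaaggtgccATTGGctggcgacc
Pmvk: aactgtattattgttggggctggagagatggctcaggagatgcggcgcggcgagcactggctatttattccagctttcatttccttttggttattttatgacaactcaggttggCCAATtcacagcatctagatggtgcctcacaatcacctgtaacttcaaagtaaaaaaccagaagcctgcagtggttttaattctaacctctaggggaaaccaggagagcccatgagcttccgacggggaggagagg
Ebp: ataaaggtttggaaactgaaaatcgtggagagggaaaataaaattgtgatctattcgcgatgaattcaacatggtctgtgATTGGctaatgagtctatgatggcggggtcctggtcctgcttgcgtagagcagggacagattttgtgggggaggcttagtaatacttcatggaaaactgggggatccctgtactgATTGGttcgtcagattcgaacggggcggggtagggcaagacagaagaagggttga
Insig1: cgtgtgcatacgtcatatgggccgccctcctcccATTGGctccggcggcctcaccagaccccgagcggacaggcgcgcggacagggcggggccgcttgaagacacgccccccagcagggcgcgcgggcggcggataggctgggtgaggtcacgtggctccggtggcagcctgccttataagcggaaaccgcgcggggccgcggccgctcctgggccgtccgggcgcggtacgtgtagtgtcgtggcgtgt

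The last sequence is mmu-miR-33-5p at chr15:82198127-82198147 (GRCm38.p6, plus strand), which lies inside the span of Srebf2, chr15:82147269-82205379. It is shown because its host is one of the genes described and its known target Npc1 is another. Capitals mark the seed, bases 2 to 8.
mmu-miR-33-5p: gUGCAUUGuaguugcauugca

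Dicer1, the gene deleted, was lower in all 5 mutants by each of 2 probe sets, at 5.42 to 5.94 against 7.99 to 8.10 in controls on the first and 6.97 to 7.20 against 7.91 to 8.18 on the other. The arrays had medians of 6.40 to 6.67 and correlated with each other at 0.970 to 0.993. On the first principal component of all genes the controls lay between -31.80 and -21.01, mutants 1 to 4 between 23.49 and 47.28, and mutant 5 at -9.50. The hepatocyte markers fixed for this work (7 measured, among them Alb and Ttr) were high in each array, with a summed level of 18.05 to 18.30 on the log2 scale over both groups, and 0 passed the test by limma (1 of 7 at an unadjusted p under 0.05, against 34.9% of all genes).

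Few of the sterol synthesis enzymes passed the test between the groups, although most had a lower mean in mutants. Of the 18, 2 fell, Pmvk and Ebp, 0 rose and 16 did not pass (limma, Benjamini-Hochberg adjusted p under 0.05 over all 12366 genes). Over the 26 genes the same 2 fell, 7.69% of them, against 11.5% of all genes called lower, 8.62% called higher and 20.1% called in either direction, so the share called was not above the background. By unadjusted p, 5 of 26 (19.2%) were under 0.05, a smaller share than the 34.9% of all genes. Of the 18 enzymes, 16 had a lower mean in mutants, with a median difference of -0.65, against 6776 of 12366 genes below 0 and a median of -0.01. That median was -0.41 without mutant 2, -0.33 without mutant 4 and -0.40 with array weights, with 14, 13 and 15 enzymes below 0. The values of single livers show what lies between these statements: the enzymes varied widely among mutants, and in a shared order. In bulk liver RNA, fewer cells of a type and less RNA per cell cannot be told apart.

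**Figure D1:**
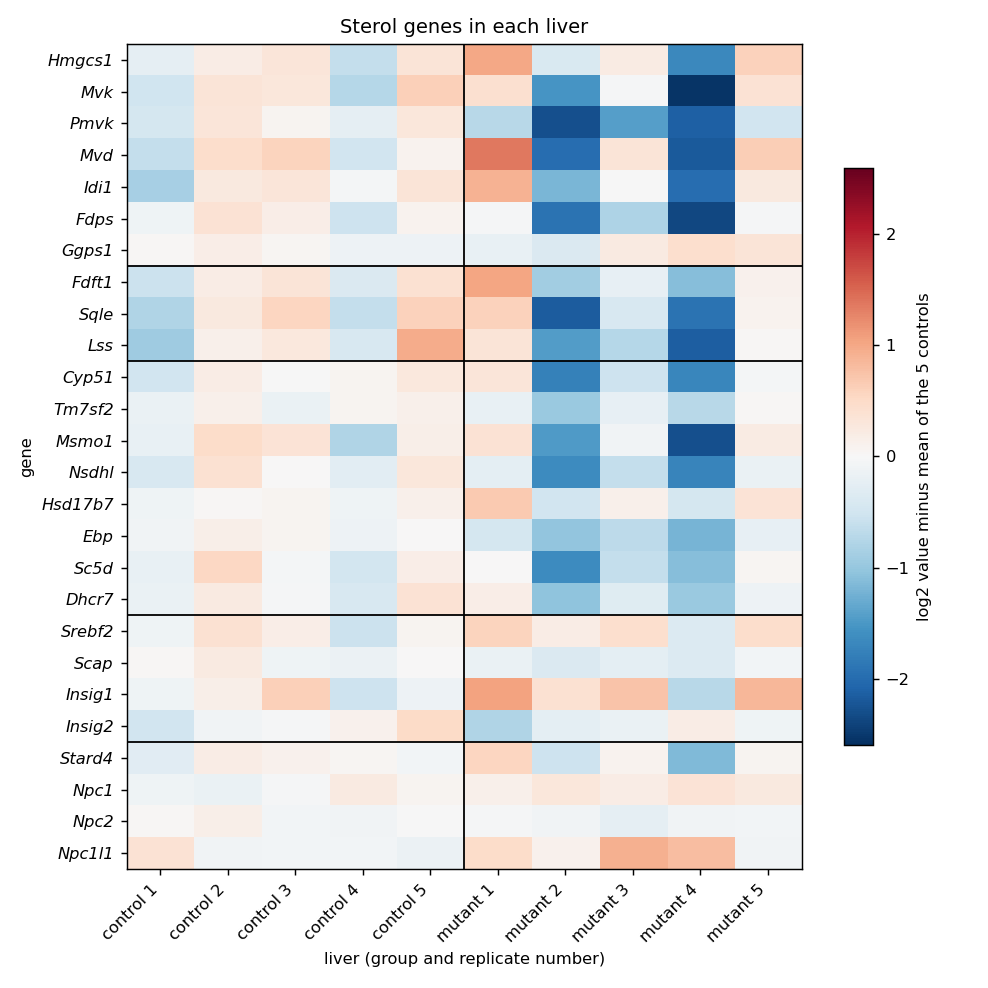
Colour gives the log2 value of each of the 26 genes (rows, in pathway order, with lines between the gene groups) in each liver (columns) minus the mean of the 5 controls. Mutants 2 and 4 are blue over nearly all enzymes, with mean deviations of -1.34 and -1.54, while mutants 1 and 5 are near or above the controls, at 0.30 and 0.11.

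The early enzymes turn acetyl-CoA units into the isoprenoid farnesyl pyrophosphate. Pmvk, phosphomevalonate kinase, stood at 9.40, 10.16, 9.92, 9.62 and 10.14 in controls 1 to 5 and at 9.14, 7.56, 8.42, 7.73 and 9.36 in mutants 1 to 5. The groups did not overlap, but mutant 5 at 9.36 was close to control 1 at 9.40. Pmvk fell by 1.41 (SE 0.36, 95% interval -2.21 to -0.60, limma adjusted p = 0.0266), a mutant over control ratio of 0.377. Groups were apart in the downward direction for 6.99% of all genes. The Pmvk call was lost without control 2, 3 or 5 or mutant 2, 3 or 4 (adjusted p of 0.0529 to 0.0605) and without moderation of the variances (0.0511), within 0.00687 to 0.0605 over all settings.

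Hmgcs1, the synthase that makes HMG-CoA, stood at 12.51, 12.94, 13.06, 12.12 and 13.07 in controls and at 13.74, 12.35, 12.95, 11.06 and 13.33 in mutants. Its mutant values ran both above and below all controls, and the difference of -0.06 (SE 0.46, 95% interval -1.09 to 0.98, adjusted p = 0.969) did not pass. Its 5 probe sets gave differences of -0.11 to 0.04. Mvd, the decarboxylase that makes isopentenyl pyrophosphate, spanned 3.56 on the log2 scale among mutants, from 4.02 in mutant 4 to 7.58 in mutant 1, against 1.21 among controls. Idi1, the isomerase of isopentenyl pyrophosphate, ran from 10.34 to 13.23 in mutants and from 11.46 to 12.67 in controls. The means differed by -0.40 (SE 0.52, adjusted p = 0.648), by -0.73 without mutant 1, -0.21 without mutant 2 and -0.0062 without mutant 4, and by -0.62 without control 1.

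Fdps, farnesyl pyrophosphate synthase, stood at 12.36, 12.85, 12.64, 11.94 and 12.57 in controls and at 12.45, 10.55, 11.67, 10.12 and 12.43 in mutants. Mutants 1 and 5 lay within the control range and mutants 2, 3 and 4 below it. The mean difference was -1.03 (SE 0.46, 95% interval -2.07 to 0.01, adjusted p = 0.149) and did not pass. Mvk, mevalonate kinase, differed by -0.66 (SE 0.60, adjusted p = 0.485), with mutants from 4.39 to 7.37 and controls from 6.198 to 7.57, and by -0.19 without mutant 4. Ggps1, which diverts farnesyl pyrophosphate to geranylgeranyl pyrophosphate for protein prenylation, was the exception among these enzymes. Its mutants 4, 5 and 3 stood highest, at 7.25, 7.15 and 7.06, above the 6.70 to 7.01 of controls, with a difference of 0.09 (SE 0.16, adjusted p = 0.761) and a range of 0.09 to 0.42 over its 4 probe sets.

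Squalene synthesis and closure to lanosterol commit carbon to sterol. Sqle, the epoxidase of squalene, stood at 8.78, 9.82, 10.11, 8.94 and 10.15 in controls and at 10.17, 7.40, 9.14, 7.63 and 9.66 in mutants. Mutants 2 and 4 lay below all controls, and mutant 1 was the highest liver of all 10. The difference of -0.76 (SE 0.57, 95% interval -2.05 to 0.53, adjusted p = 0.393) did not pass, and it was -0.41 without mutant 2 and -0.47 without mutant 4. Lss, the cyclase that forms lanosterol, differed by -0.79 (SE 0.52, adjusted p = 0.316), or -0.45 without mutant 4. Fdft1, squalene synthase, differed by -0.22 (SE 0.39, adjusted p = 0.763), or -0.53 without mutant 1, -0.05 without mutant 2 and 0.0058 without mutant 4. Control 1 had the lowest control value of all 3 genes and mutant 1 the highest mutant value.

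The later enzymes trim lanosterol to cholesterol. Ebp, the sterol isomerase, stood at 13.21, 13.44, 13.36, 13.16 and 13.31 in controls and at 12.83, 12.27, 12.62, 12.08 and 13.07 in mutants. All 5 mutants lay below all controls, mutant 5 by the least. Ebp fell by 0.72 (SE 0.18, 95% interval -1.11 to -0.33, adjusted p = 0.0225), a ratio of 0.607. The call was lost without control 3 (adjusted p = 0.0526) or mutant 2 (0.0525), within 0.00399 to 0.0526 over all settings.

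Nsdhl, a dehydrogenase of the removal of the C4 methyl groups, stood at 10.99, 11.80, 11.40, 11.12 and 11.70 in controls and at 11.15, 9.77, 10.78, 9.69 and 11.23 in mutants. Mutants 1 and 5 lay within the control range and the others below it. Its difference of -0.88 (SE 0.34, adjusted p = 0.0975) passed only without mutant 5, where it was -1.06 (adjusted p = 0.0445, within 0.0445 to 0.195 over all settings). Msmo1, the oxidase of the same step, spanned 10.22 to 12.89 in mutants and 11.73 to 12.97 in controls (-0.65, SE 0.52, adjusted p = 0.431), with a difference of -0.24 without mutant 4. Cyp51, which removes the C14 methyl group, differed by -0.75 (SE 0.41, adjusted p = 0.230), or -0.49 without mutant 2.

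Tm7sf2, a sterol reductase, differed by -0.41 (SE 0.18, 95% interval -0.83 to 0.0015, adjusted p = 0.145), and Dhcr7, the last reductase of the Kandutsch-Russell route, by -0.45 (SE 0.26, adjusted p = 0.245). Sc5d, the desaturase, differed by -0.66 (SE 0.34, adjusted p = 0.199) on the probe set used and by 0.29 and -0.19 on its others, and by -0.42 without mutant 2. Hsd17b7, the ketoreductase of the C4 step, had a difference of 0.05 (SE 0.22, adjusted p = 0.930). In controls it spanned 9.52 to 9.77 and in mutants 9.15 to 10.31, so that mutants 1, 3 and 5 lay above all controls and mutants 2 and 4 below.

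**Figure D2:**
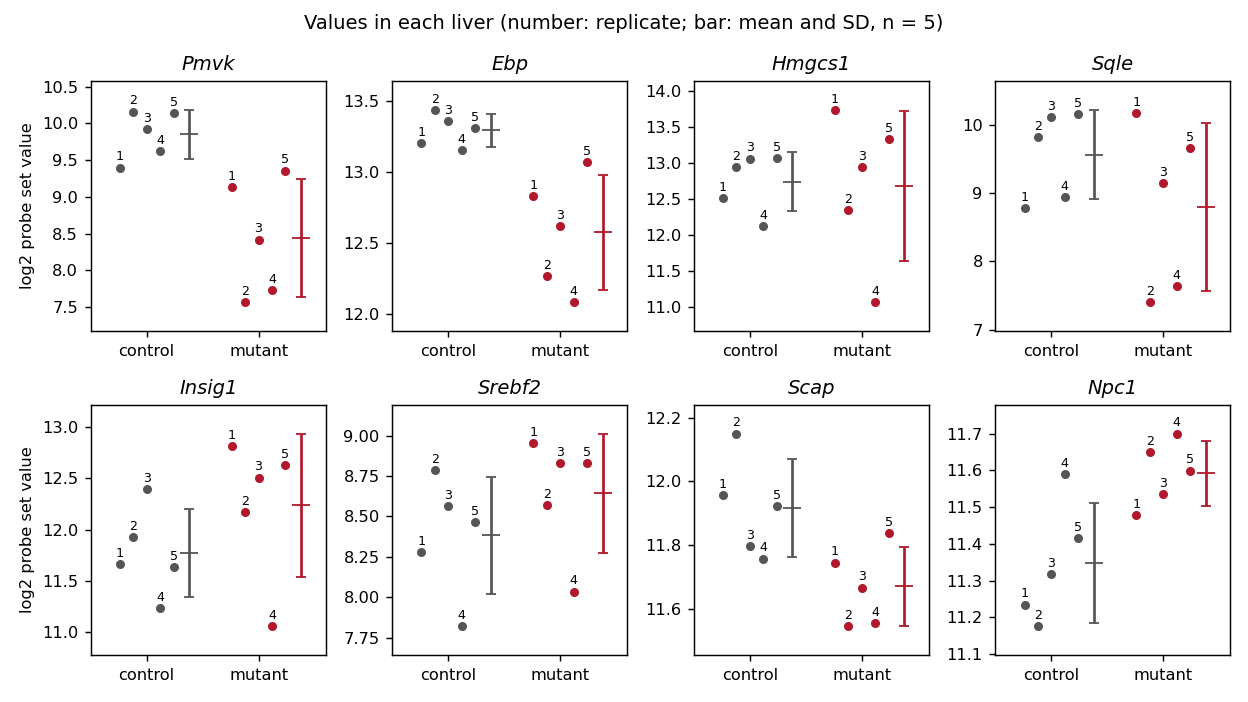
Points give the log2 value of 8 genes in each liver, numbered by replicate, and bars give the mean and SD of each group (n = 5). Each panel has its own axis. Pmvk and Ebp do not overlap between groups, Hmgcs1 and Sqle spread widely among mutants, and Insig1 is low in mutant 4 alone.

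The order of the livers was shared. Mutants 2 and 4 were the lowest mutants for 17 of the 18 enzymes and for 21 of all 26 genes, against 14.7% of all genes. Among controls, replicates 1 and 4 were the lowest for 15 of 18 enzymes and 16 of 26 genes, against 12.4% of all genes. Both orders held together for 15 of 18 enzymes, against 2.73% of all genes. These shares describe 10 arrays whose order was noticed in the data, and the enzymes share those arrays, so that they are not independent observations of it.

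Set against the control range, mutants 2 and 4 each had 17 of 18 enzymes below all controls, while 33.2% and 35.7% of all genes lay below in the same arrays. In mutant 2 the remaining enzyme, Hmgcs1, was within the range, and in mutant 4 the remaining one, Ggps1, was above it. Mutant 3 had 7 enzymes below, 9 within and 2 above. In mutant 1, 4 enzymes lay below, 7 within and 7 above, and in mutant 5 the counts were 2, 12 and 4. Over all genes, mutant 1 lay apart from the controls, at 31.32 on the first component against 23.49 for mutant 3 and 47.28 and 41.31 for mutants 2 and 4. Dicer1 did not follow this order, since mutant 3 had its lowest value on the first probe set (5.42) and its highest on the other (7.20).

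**Figure D3:**
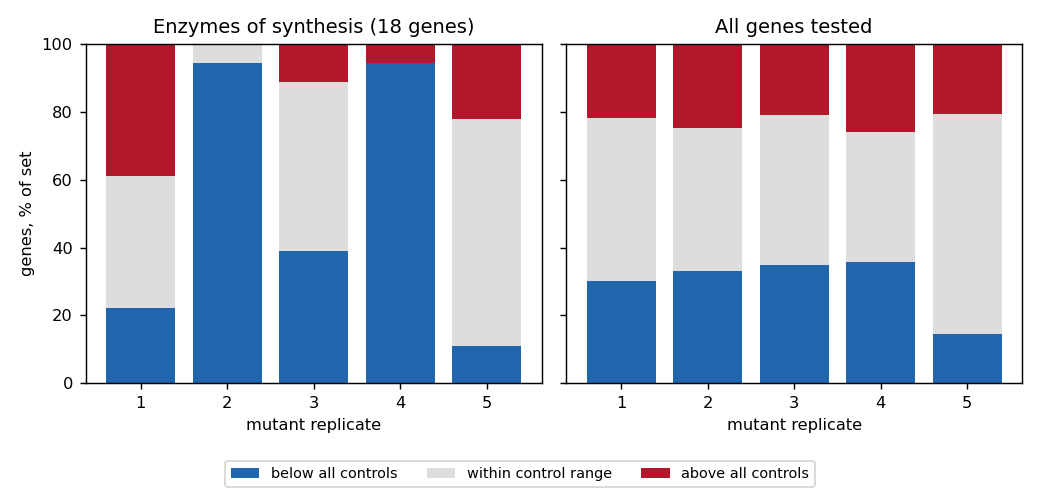
Bars give the percentage of genes in each mutant liver that lay below all 5 controls, within their range or above them, for the 18 enzymes and for all 12366 genes. For mutants 2 and 4 the enzymes are below the controls in 94.4%, against 11.1% for mutant 5, and the bars for all genes differ less, from 14.5% to 35.7%.

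The spread of the enzymes was larger in mutants than in controls. For 18 of 18 enzymes the SD among mutants exceeded that among controls, and for 13 of 18 it was over 2 times as large, against 61.4% and 23.4% of all genes. The median ratio of mutant to control SD was 2.38 over the enzymes, from 1.43 for Lss to 4.54 for Hsd17b7, against 1.20 over all genes. A range of at least 2 on the log2 scale among mutants was seen for 10 of 18 enzymes and 3.11% of all genes. A range of at least 1 was seen for 15 enzymes and 17% of genes in mutants, and for 7 enzymes and 10.5% of genes in controls. The enzymes thus varied more than most genes in controls as well, with a median SD of 0.37 against 0.16 for all genes, and in mutants the medians were 0.90 and 0.20. The largest fold between mutants was that of Mvd, 11.8 from lowest to highest, against 2.31 in controls. Its mutants 4 and 2 stood at 4.02 and 4.21, not far above the 25th percentile of the table, 3.60, and low values depend on the unstated background correction. Age and fasting time are the same for all mice in the labels, while the sources used here do not state sex, litter or time of day, and their part in this spread was not tested.

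**Figure D4:**
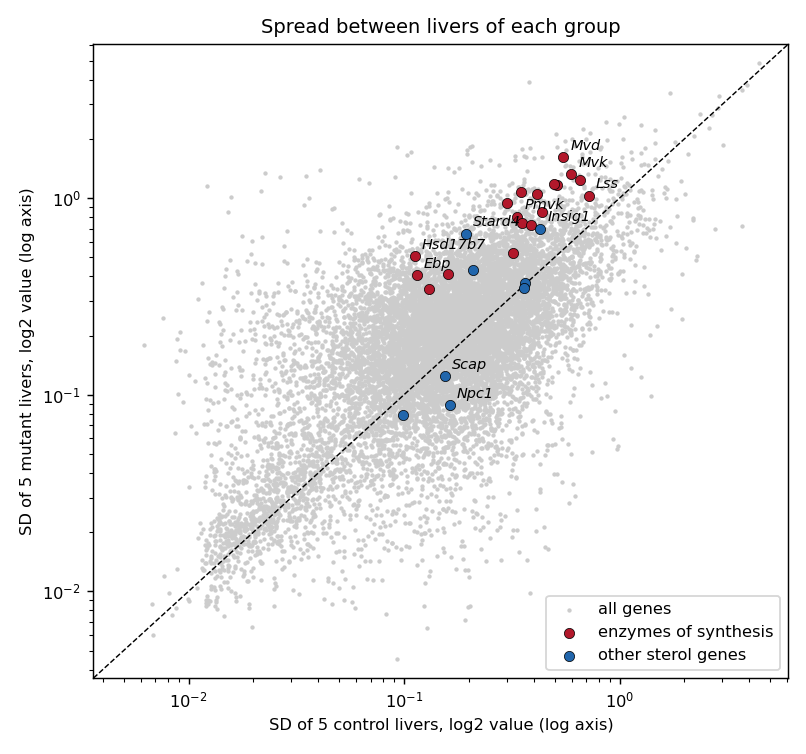
Each point is a gene, with the SD of its log2 value among 5 controls on the horizontal axis and among 5 mutants on the vertical axis, both on log scales, and the dashed line marks equal SD. The 18 enzymes (red) lie above the line, and of the 8 other sterol genes (blue) 4 do.

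The genes that control SREBP did not follow the enzymes in full. Insig1, itself a target of SREBP whose protein holds SCAP back, stood at 11.66, 11.92, 12.40, 11.24 and 11.64 in controls and at 12.82, 12.17, 12.51, 11.06 and 12.63 in mutants. Mutants 1, 3 and 5 lay above all controls, mutant 2 within their range and mutant 4 below it. The difference was 0.47 (SE 0.34, 95% interval -0.29 to 1.22, adjusted p = 0.373), or 0.76 without mutant 4. Relative to the mean deviation of the 18 enzymes in the same liver, Insig1 was higher in all 5 mutants, by 0.75, 1.74, 1.06, 0.83 and 0.75, than in controls, where this ran from -0.42 to 0.45. Mutant 2 showed the widest gap, with Insig1 0.40 above the control mean and the enzymes 1.34 below it. The gap was not particular to Insig1. Srebf2, on the probe set used, and the enzyme Hsd17b7 also lay above the enzyme mean in all 5 mutants. In mutant 2 their deviations from the control mean were 0.19 and -0.49. The gap of Insig1 to the enzymes was chosen after the values were seen and was not tested.

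Srebf2, which encodes SREBP2, ran from 7.82 to 8.79 in controls and from 8.04 to 8.95 in mutants. The means differed by 0.26 (SE 0.22, adjusted p = 0.438) on the probe set used and by -0.11 on the other. On the probe set used, mutants 1, 3 and 5 lay above all controls, as for Insig1, and mutants 2 and 4 within their range. Control 4 and mutant 4 had the lowest value of their groups there. On the other probe set mutant 3 alone lay above all controls, and mutant 2, at 6.09, lay below their range of 6.34 to 7.41. Scap stood at 11.96, 12.15, 11.80, 11.76 and 11.92 in controls and at 11.75, 11.55, 11.67, 11.56 and 11.84 in mutants. Mutant 5 alone reached the control range, and the difference of -0.25 (SE 0.09, adjusted p = 0.0760) passed only without that liver (-0.29, adjusted p = 0.0393, within 0.0393 to 0.157 over all settings). Insig2, whose liver transcript is known to rise in fasting, had a difference of -0.22 (SE 0.21, adjusted p = 0.508) on the probe set used and of 0.13 and 0.27 on its others. For Scap and Insig2 the SD among mutants was below that among controls, with ratios of 0.80 and 0.96.

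Genes that move sterol showed small differences. Npc1, the lysosomal protein that exports cholesterol, stood at 11.23, 11.18, 11.32, 11.59 and 11.42 in controls and at 11.48, 11.65, 11.54, 11.70 and 11.60 in mutants. The groups overlapped through control 4, and the mutants were close together, with an SD of 0.09 against 0.16. The difference of 0.25 (SE 0.08, 95% interval 0.06 to 0.43, adjusted p = 0.0641) did not pass, but it did after quantile normalization (adjusted p = 0.0400), after subtraction of the 75th percentile of each array (0.0432) and without control 4 (0.0305), within 0.0305 to 0.136 over all settings. Npc2, its soluble partner in the lysosome, differed by -0.11 (SE 0.06, adjusted p = 0.241).

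Stard4, a cytosolic sterol carrier and SREBP target, resembled the enzymes in its order, with mutants 4 and 2 lowest at 9.41 and 10.01 and mutant 1 highest at 11.11, against 10.25 to 10.75 in controls (-0.19, SE 0.28, adjusted p = 0.699). Npc1l1, the intestinal sterol importer, was dim, at 2.65 to 3.72 over all livers, where the 25th percentile of the table is 3.60. Its difference of 0.45 (SE 0.20, adjusted p = 0.144) passed only with array weights (adjusted p = 0.0374) and without mutant 5 (0.0382), within 0.0374 to 0.279 over all settings.

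**Figure D5:**
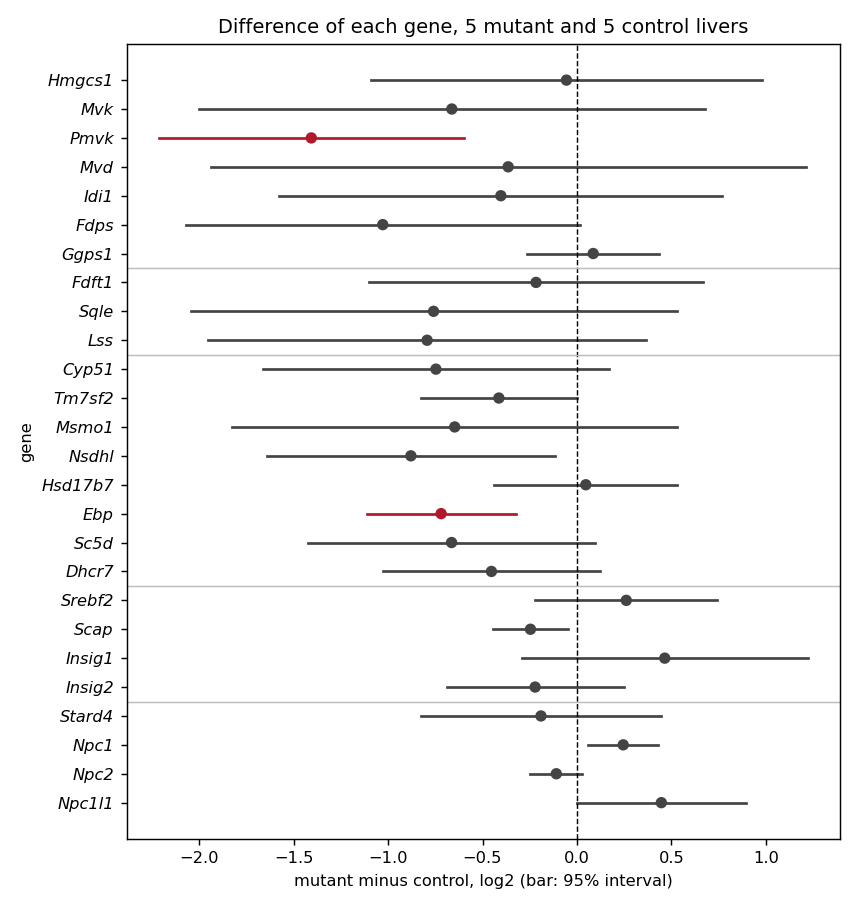
Points give the mutant minus control difference on the log2 scale for each of the 26 genes and bars its 95% interval, in red for adjusted p under 0.05 and with lines between the gene groups. Pmvk (-1.41) and Ebp (-0.72) are the red ones, and the intervals of most enzymes are wide and centred below 0.

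The genes named from each further list are those with the smallest p. Of 13 other genes of sterol and isoprenoid supply measured, 5 fell and 0 rose, with a median difference of -0.43. Over all genes, 11.5% were called lower and 8.62% higher. By unadjusted limma p, 10 of 13 (76.9%) were under 0.05, against 34.9% of all genes. The citrate carrier Slc25a1, which brings acetyl units for sterol and fatty acid synthesis to the cytosol, fell by 0.78 (SE 0.15, adjusted p = 0.0107). Cyb5r3 and Cyb5b, which pass electrons to sterol oxidases and other enzymes, fell too, Cyb5r3 by 0.58 (SE 0.11, adjusted p = 0.0111) and Cyb5b by 0.89 (SE 0.17, adjusted p = 0.0115). Their probe sets ranged from -0.76 to -0.58 and from -0.92 to -0.54. These 3 kept their calls in all 20 other settings run. Cyb5b stood at 10.77 to 11.17 in controls and at 10.25, 9.88, 10.26, 9.55 and 10.55 in mutants, so that mutants 4 and 2 were lowest, as for most enzymes, and mutant 5 highest. The list count was 3 without control 2, 3 or 5 or mutant 2 or 4.

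Of 13 genes of SREBP processing and sterol-regulated turnover, 2 rose and 0 fell (8.62% and 11.5% of all genes), with a median difference of -0.04. Erlin2, an endoplasmic reticulum protein that takes part in sterol-regulated degradation, rose by 0.78 (SE 0.18, adjusted p = 0.0193), and mutant 5, at 8.14, lay within the control range of 7.93 to 8.17. Mbtps2, the site-2 protease that cleaves SREBP, rose by 0.42 (SE 0.12, adjusted p = 0.0384), but among fits without 1 array it was called only without control 4 or 5 or mutant 5 (adjusted p up to 0.0793 in the others). The number that rose was 1 without control 1, 2 or 3 or any of mutants 1 to 4, and the number that fell was 2 without mutant 5, with array medians subtracted and with array weights, and 1 without dim genes. Srebf1, which encodes SREBP1, stood at 10.20 to 10.94 in controls and at 9.18, 9.09, 9.96, 8.70 and 10.56 in mutants. Mutants 1 to 4 lay below all controls and mutant 5 within them. Its difference was -1.004 (SE 0.34, adjusted p = 0.0623), and it passed without mutant 5, where it fell by 1.27 (adjusted p = 0.00746), with array medians subtracted, without dim genes and with array weights (0.00746 to 0.132 over all settings). In mutant 1, Srebf1 was thus low while Hmgcs1, Mvd and Idi1 were above all controls.

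Of 12 genes of sterol efflux, 3 rose and 0 fell (8.62% and 11.5% of all genes), with a median of 0.03. Abca1, the exporter of cholesterol to apolipoprotein A-I and a known target of LXR and of miR-33, stood at 12.56 to 12.79 in controls and at 12.98 to 13.21 in mutants. The groups did not overlap on the probe set used (6.17% of all genes in that direction). Abca1 rose by 0.44 (SE 0.07, adjusted p = 0.00652), with 0.14 to 0.44 over its 3 probe sets and the call held in all 20 other settings. On its other probe sets the groups overlapped and did not pass (limma adjusted p = 0.203 and 0.425 over all probe sets). Abcg5, a subunit of the biliary sterol exporter, rose by 0.56 (SE 0.15, adjusted p = 0.0325), a call lost without control 1, 2, 4 or 5 or mutant 2 or 4 (adjusted p up to 0.0716). Abcg8, its partner subunit, had a difference of -0.30 (adjusted p = 0.316). Pltp, the phospholipid transfer protein, rose by 0.46 (SE 0.14, adjusted p = 0.0496) and among fits without 1 array was called only without mutant 3 or 5. Its call was also lost with array medians subtracted, without moderation, with the replicate block, and with the mean or the most variable of its probe sets. The adjusted p was up to 0.244 over all settings. The number that rose was 1 without control 1, 2, 4 or 5 or mutant 2 or 4.

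Of 11 genes of sterol uptake and traffic, 1 rose and 1 fell, with a median of -0.13. These counts were near the shares of all genes, 8.62% called higher and 11.5% lower. By unadjusted limma p, 7 of 11 (63.6%) were under 0.05, a larger share than the 34.9% of all genes. Lrp1, a receptor for lipoprotein remnants, rose by 0.39 (SE 0.10, adjusted p = 0.0280), and Stard5, a sterol carrier, fell by 0.38 (SE 0.11, adjusted p = 0.0432). Among fits without 1 array, Lrp1 was called only without control 1 or mutant 1 or 5 and Stard5 only without control 2 or mutant 5 (adjusted p up to 0.0660 and 0.0956 in the others). Stard3, a lysosomal membrane protein that binds sterol, had a difference of -0.42 (SE 0.14, adjusted p = 0.0581). Without mutant 5, 2 genes of this list rose and 2 fell. Bile acid synthesis, the main outlet of liver cholesterol, had 12 measured genes. Of these, 2 rose and 3 fell (8.62% and 11.5% of all genes), with a median of -0.09. Akr1d1, the steroid 5-beta-reductase, rose by 0.77 (SE 0.14, adjusted p = 0.00862), and Slc27a5, which activates bile acids with CoA, fell by 0.64 (SE 0.13, adjusted p = 0.0118), both called in every fit without 1 array. Cyp39a1, an oxysterol hydroxylase, fell by 1.58 (SE 0.40, adjusted p = 0.0254), a call lost without control 3 or 4 or mutant 1, 2 or 4 (adjusted p up to 0.0595). The number of bile acid genes that fell was 1 without control 4 or mutant 1, 2 or 4, and the number that rose was 1 without any 1 of control 1, 2, 3 or 5 or mutant 1, 2 or 3.

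Fatty acid synthesis, the other lipid pathway under SREBP, offers the nearest comparison. Of 12 measured genes, 5 fell and 0 rose (11.5% and 8.62% of all genes), with a median of -0.53. The sterol enzymes had a median of -0.65 and 2 of 18 called. The malic enzyme Me1 (-1.34, SE 0.22, adjusted p = 0.00764), the carboxylase Acacb (-1.13, SE 0.20, adjusted p = 0.00869) and the desaturase Scd1 (-1.58, SE 0.31, adjusted p = 0.0116) did not overlap between the groups on the probe sets used and were called in every fit without 1 array. Me1 differed by -0.69 on its other probe set, where the groups overlapped (adjusted p = 0.112 over all probe sets), and Scd1 by -1.58, where they also overlapped. Scd1 stood at 12.32, 12.33, 12.72, 13.34 and 14.01 in mutants, so that mutant 1, the highest mutant for Hmgcs1, Idi1 and Sqle, was its lowest. The mean deviation of the fatty acid genes from controls was -0.40, -0.79, -0.27, -0.93 and -0.40 in mutants 1 to 5, below the control range of -0.11 to 0.06 in each, whereas the enzymes of sterol synthesis were below their control range of -0.38 to 0.29 in mutants 2 and 4 only. The difference between these lists was not tested. The number of fatty acid genes that fell was 3 without control 2, 3, 4 or 5 or mutant 1, 2 or 4.

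Among markers of other cells of the liver, those of macrophages and stellate cells were higher in mutants. Over all genes, 8.62% were called higher and 11.5% lower. Of 12 Kupffer cell and macrophage markers, 8 rose and 0 fell, and their summed level was 13.52 to 14.33 in controls and 14.37 to 14.89 in mutants on the log2 scale. Of 9 stellate cell and matrix markers, 6 rose and 0 fell, at 14.23 to 14.46 and 14.64 to 15.24. Of 8 endothelial markers, 0 rose and 1 fell (12.64 to 13.01 and 12.51 to 12.75), of 5 bile duct markers 0 rose and 0 fell (6.54 to 6.74 and 6.64 to 7.38, with 1 of 5 at an unadjusted p under 0.05 by limma, against 34.9% of all genes), and of 4 T, B and NK cell markers 0 rose and 0 fell (6.10 to 6.40 and 5.84 to 6.30, with 1 of 4 at an unadjusted p under 0.05). The number of macrophage markers that rose was 3 without control 1 or mutant 1, 2 or 4, 4 without control 5 and without moderation, and 5 without control 4, and that of stellate markers was 3 without mutant 4. Without mutant 5, 2 endothelial markers and 1 hepatocyte marker fell, 1 hepatocyte marker fell without control 5, and 1 bile duct marker rose without mutant 1. Within mutants the macrophage list was highest in mutants 4 and 1, at 0.90 and 0.66 above the control mean. These mutants had the lowest and the highest mean of the sterol enzymes. The stellate list was highest in mutants 2 and 4, at 0.89 and 0.78, the mutants with most enzymes below all controls. Mutant 1, with the highest enzyme mean, was close to mutant 4 at 0.74. The bile duct list was also highest in mutants 2 and 4, at 0.87 and 0.58. Among its genes, Krt7 and Cldn7 were dim, with control means of 2.53 and 3.11, below the 25th percentile of the table, 3.60. Endothelial markers were highest in mutant 5, and T, B and NK cell markers in mutant 1. The part of these cells in the values of the sterol genes was not tested.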

How the data were processed

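Total liver RNA of 10 mice, 5 per group, was amplified, biotinylated and hybridised to Affymetrix arrays, per the labels' protocols. The values are log2 signals, 1 per probe set and array, in a single table that the authors deposited. The log base was read from the values (0.27 to 16.7), and the sources used here do not state the summary method, background correction or normalization, on which low values depend. Groups and replicate numbers came from the titles. Of 25995 probe sets, 37 controls were left out, and 21613 carried 1 symbol, 638 several and 3707 none. Symbols were checked through gene identifiers against RefSeq on GRCm38.p6 (0 changed, 61 unmatched). Probe sets whose names end in s_at or x_at can pick up related transcripts.

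Each of 12366 genes was represented by its brightest probe set and tested in limma 3.58.1 (R 4.3.3; functions lmFit and eBayes). P-values were adjusted by Benjamini-Hochberg over every gene tested, and a gene was called at adjusted p under 0.05. Every adjusted p in the text comes from such a fit, with the setting or arrays changed where the text names this. Those of the second Me1 probe set and of the other Abca1 probe sets were adjusted over all probe sets instead. Differences are mutant minus control, with moderated standard errors. Nothing in the labels says whether litters differed, so p-values reflect only how these livers varied. Precision is limited by 5 arrays per group. Tested on simulated data for these 12366 genes, the fit found 24 of 50 genes given a log2 difference of 0.5 and 40 of 50 at 1. It found 46 of 50 at 2 and 50 of 50 at 3, with 5 false calls among 165 over all sizes. This recovery was not computed for the sterol enzymes and does not hold for genes of their spread. Their median SD was 0.37 in controls and 0.90 in mutants, against 0.16 and 0.20 for all genes. The members and lists were chosen with earlier results of these data known. Named genes are all 26 members, Dicer1 and up to 3 genes of each other pathway list with the smallest p, and Abcg8 was added after its value was seen. Alternatives changed the normalization, dim-gene filter, probe set rule, moderation, array weights, block and arrays used.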

Additional observations from a re-analysis of the deposited data

Results flagged for a closer look

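Npc1l1 in control replicate 1 stood apart from the other controls, at 3.16 against 2.65 to 2.73 on the log2 scale. The gap to the nearest control was 0.837 of the group's range, above Dixon's critical value of 0.71 for 5 samples. All 5 control values were below the 25th percentile of the table, 3.60. This was 1 of 52 groups of 5 values checked, and chance gives about 1 in 20.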

How the results depend on the processing

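Of the 26 genes, 0 rose and 2 fell. Over the 10 fits without 1 array the number that rose ran from 0 to 1 and the number that fell from 0 to 4: 0 without control 3 or mutant 2, 1 without control 2 or 5 or mutant 3 or 4, and 4 without mutant 5 (Pmvk, Nsdhl, Ebp and Scap). The number that rose was 1 with quantile normalization and with the 75th percentile subtracted (Npc1 in both) and with array weights (Npc1l1), and the number that fell was 1 with no moderation and with the replicate block (Ebp in both). Over all genes 20.1% were called, and 11.2% to 28.6% without 1 array, 13.1% with no moderation and 14.8% with the block (719 higher, 1117 lower). No pairing of the livers by replicate number was seen, with same-number correlations of -0.183 to 0.0876 and 1 of 5 numbers closest to its own. Pairing by litter or processing was not tested. With the block 2 of 12 macrophage markers rose, against 8 without it. The differences that changed sign were called in neither fit. With the mean of all probe sets Hsd17b7 was -0.034 and Insig2 0.059. With the most variable probe set Hmgcs1 was 0.036, Hsd17b7 -0.24, Srebf2 -0.11 and Insig2 0.27. With array weights Hmgcs1 was 0.14. Without 1 array Hmgcs1 reached 0.02 (control 3), 0.03 (control 5 or mutant 2) and 0.35 (mutant 4), from a low of -0.32. Hsd17b7 reached -0.11 (mutant 1) and -0.03 (mutant 5), from a high of 0.18. Mvd ran from -0.80 to 0.04 (mutant 2) and 0.090 (mutant 4), Fdft1 from -0.53 to 0.0058 (mutant 4) and Stard4 from -0.38 to 0.047 (mutant 4). The cause was not tested beyond the array or probe set named.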
